A study of Homo sapiens with 6 samples.

Results

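The genes described here are 32 listed enzymes and carriers of amino acid metabolism, 19 of amino acid and one-carbon synthesis and 13 amino acid transporters. They were taken by name, and each was read from probe sets that the array's annotation gives to that gene alone. Of the 32 genes, 31 had such a probe set and 29 were bright enough to be tested (16 of synthesis and 13 of transport), among 12839 genes tested in all. GPT2, a mitochondrial alanine transaminase, had no probe set of its own and was not analysed here. SHMT1 and MTHFD1L were measured but stayed dim. The cells were Daoy, an established line from a human medulloblastoma, a tumour of the cerebellum. They were treated with 1 µM thapsigargin (Tg) for 3 h, treated with 1 µM Tg for 8 h, or left untreated, with 2 arrays for each of these 3 groups. The labels number the arrays of a group replicate 1 and 2. All cultures were grown in serum-containing medium with added glutamine. Daoy is 1 line, and nothing in the labels says what the arrays of a replicate number share beyond that number.

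Tg blocks the calcium pump of the endoplasmic reticulum (ER), which empties the ER of calcium and leaves proteins unfolded there. The ER kinase PERK then slows protein synthesis and lets the mRNA of the transcription factor ATF4 be translated. ATF4 is also made when amino acids run short, and it is known for switching on enzymes that make asparagine, serine, glycine, proline and cysteine and the carriers that import amino acids. It binds DNA with C/EBP family partners at a composite element whose core is TGATGNAA.

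The values were MAS5 signals, a linear brightness of each probe set, scaled on every array to the same trimmed mean of 500.07 to 500.08. Signals were compared as log2 values, so a log2 fold change of 1 is a doubling. Differences were tested with limma across the 27616 probe sets that reached a signal of 100 on 2 or more arrays, with Benjamini-Hochberg adjustment, and a change was called at an adjusted p under 0.05. Control transcripts added to every hybridization were brighter in replicate 1, with geometric means between 7762 and 11671, than in replicate 2, with geometric means between 2718 and 2840. Each number held all 3 groups, so every comparison is also given from a second fit that includes the number as a block (the blocked fit below). DDIT3, which encodes CHOP and is a marker of ER stress, had signals of 20009 and 15123 after 8 h of Tg and 405 and 1654 in untreated cells. It was far brighter after Tg in both replicates, with a log2 fold change of 4.41 ± 0.56 (SE, adjusted p = 0.0211). Of 11 neural and medulloblastoma markers, VIM, TUBB3, ZIC1 and ZIC2 had signals of at least 1924 on every array, while those of ATOH1, BARHL1 and SYP were at most 80.8 and NEUROD1 had no value here. Of 4 glial markers, GFAP, S100B and AQP4 were at most 49.9, while OLIG2 had 398 and 481 after 8 h of Tg and 74.9 and 185 in untreated cells (adjusted p = 0.206, with the block 0.00911). Among 4 fibroblast markers, COL1A1 had signals of 17639 to 33448, COL3A1 of 2155 to 6889, COL1A2 of 415 to 1512 and DCN of at most 102. The part of these markers in the results below was not tested.

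After 8 h of Tg, the median log2 fold change of the 29 members was 0.90, against -0.09 over all genes tested. The median was 0.93 for the 16 enzymes and 0.88 for the 13 carriers, a difference that was not tested. Without the untreated replicate 1 array these medians were 0.019 and 0.20, and with signals under 100 raised to 100 they were 0.93 and 0.41. In the blocked fit 9 members rose and 0 fell: the enzymes SHMT2, ALDH1L2, CTH, PYCR1 and GOT1 and the carriers SLC7A11, SLC3A2, SLC7A1 and SLC38A1. Over all genes tested, 4.76% rose and 3.79% fell in that fit. It called 1 member, GOT1, without the untreated replicate 1 array, 15 without untreated replicate 2, 5 without Tg 8 h replicate 1 and 16 without Tg 8 h replicate 2, and it called 0 when limma's intensity trend was left out. Shares over all genes are not given for these settings, so whether the changes in count are particular to the members was not tested. Without the block, limma called 0 of the 29 members, and 0.646% of all genes tested rose. At an unadjusted p under 0.05, 6 members were higher and 0 lower, beside 5.44% of all genes higher and 6.64% lower. The local pooled error test, the method used in the study and computed here independently, called 5 members higher (ASNS, MTHFD2, ALDH1L2, CTH and SLC7A11) and 1.14% of all genes. It takes the spread from genes of similar brightness, so a gene's own disagreement between replicates does not enter its p. Of the members it called, only ASNS had 8 h and untreated arrays that overlapped. A log2 fold change of at least 1 was reached by 12 of the 29 members (7 enzymes and 5 carriers) and by 5.04% of all genes. Of the 5 carriers, SLC6A9 and SLC7A2 were under 100 on both untreated arrays and were tested only because treated arrays reached 100, and 10 members remain without them. Both treated arrays lay above both untreated arrays for 14 members, the same 2 dim carriers included, and for 15.3% of all genes. They lay below them for 3 members, MTHFD1, GLUL and SLC7A6, and for 26.7% of all genes.

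After 3 h the differences were smaller for most members. The median log2 fold change was 0.39 over the members, 0.23 over the enzymes and 0.41 over the carriers, against -0.02 over all genes tested. Limma called 0 of the 29 members in either fit, and among all genes 0.0701% rose without the block and 1.17% with it. At an unadjusted p under 0.05, 0 members differed without the block, where 3.26% of all genes were higher and 1.24% lower. With the block 5 members were higher and 1 lower at that p, beside 7.27% of all genes higher and 5.82% lower. The largest differences were those of CTH, 1.25 ± 0.83 on the log2 scale (SE, adjusted p = 0.9995), and SLC7A11, 1.17 ± 1.00 (SE, adjusted p = 0.9995). The 3 h and 8 h comparisons share the same 2 untreated arrays and are not independent of each other.

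**Figure D1:**
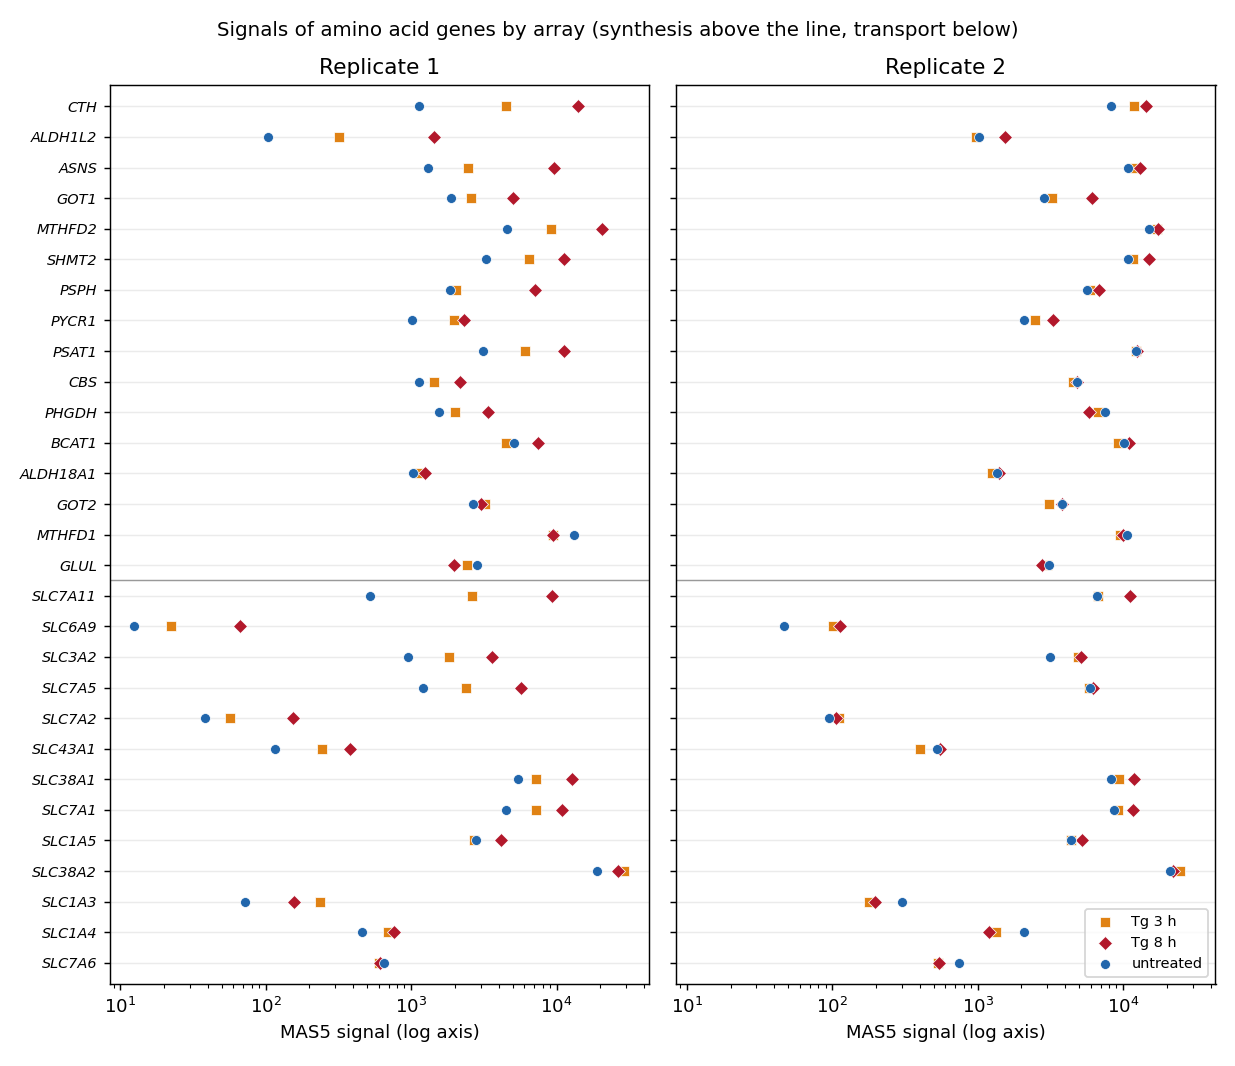
MAS5 signal (log scale) of each tested member on the 6 arrays, with a panel for each replicate and with colour and shape for the group. Among the genes with the widest spread, the low point is the untreated replicate 1 array, as for SLC7A11 at 524, while untreated replicate 2 stood at 6642.

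Asparagine synthetase, ASNS, makes asparagine from aspartate and glutamine, and its promoter holds 2 known elements that respond to amino acid and ER stress. They are shown because the letters of both were found in the RefSeq promoter window of GRCh38.p14, the TGATGNAA core beginning 68 bases before the start and GTTACA following 12 bases after it. Both stand in capitals here, in the 100 bases at chr7:97872409-97872508, read on the minus strand.
ASNS: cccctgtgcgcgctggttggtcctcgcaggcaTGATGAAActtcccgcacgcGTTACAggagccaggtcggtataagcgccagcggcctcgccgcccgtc
Of all 27305 genes with a window, 3.89% hold TGATGNAA on either strand in the 250 bases before a start, 6.80% hold GTTACA and 0.465% hold both. ASNS had signals of 2441 and 11986 after 3 h, 9645 and 13158 after 8 h and 1296 and 10740 in untreated cells (replicate 1 before replicate 2 here and in all pairs of values that follow). In replicate 1 the 8 h array was 7.44-fold brighter than the untreated one, whereas in replicate 2 all 3 arrays lay between 10740 and 13158 and the 8 h array was 1.23-fold brighter. Over both replicates the log2 fold change at 8 h was 1.59 ± 0.98 (SE, adjusted p = 0.665, with the block 0.0715).

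Serine is made from a glycolytic intermediate by PHGDH, PSAT1 and PSPH in turn. PSPH, the phosphatase of the last step, had signals of 2023 and 5883 after 3 h, 7070 and 6791 after 8 h and 1837 and 5673 in untreated cells. Its treated and untreated arrays did not overlap at 8 h, but the change was 3.85-fold in replicate 1 and 1.20-fold in replicate 2 (log2 fold change 1.10 ± 0.59 SE, adjusted p = 0.605, with the block 0.0875). PSAT1, the transaminase, was at 11238 and 12415 after 8 h and 3129 and 12238 in untreated cells, so that its 3.59-fold difference in replicate 1 had no counterpart in replicate 2 (1.01-fold). PHGDH, which commits carbon to serine, was at 3375 and 5857 after 8 h and 1549 and 7467 in untreated cells. Its 2 replicates went opposite ways, with log2 differences of 1.12 and -0.35. Neither PSAT1 (adjusted p = 0.126) nor PHGDH (adjusted p = 0.470) passed in the blocked fit.

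The one-carbon cycle passes carbon from serine onto folate, with one set of enzymes in mitochondria and another in the cytosol. SHMT2, the mitochondrial enzyme that splits serine to glycine, had signals of 6469 and 11622 after 3 h, 11230 and 14963 after 8 h and 3292 and 10869 in untreated cells. It was above both untreated arrays in both replicates at 8 h and rose in the blocked fit, with a log2 fold change of 1.12 ± 0.24 (SE of the blocked fit, adjusted p = 0.0255, and 0.544 without the block). MTHFD2, a mitochondrial dehydrogenase and cyclohydrolase of the same route, was at 9083 and 16979 after 3 h, 20409 and 17266 after 8 h and 4547 and 15095 in untreated cells. Its log2 fold change of 1.18 ± 0.53 (SE, adjusted p = 0.523) did not pass in limma with the block either (adjusted p = 0.0762). ALDH1L2, a mitochondrial enzyme that oxidizes formyl-folate, was at 320 and 980 after 3 h, 1430 and 1534 after 8 h and 103 and 1024 in untreated cells. It rose in the blocked fit by 2.19 ± 0.55 on the log2 scale (SE of that fit, adjusted p = 0.0470, and 0.503 without the block), with a log2 difference of 3.79 in replicate 1 and a log2 difference of 0.58 in replicate 2.

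Of the cytosolic enzymes of the cycle among the members, 1 was bright enough to test. MTHFD1, the cytosolic enzyme with the dehydrogenase, cyclohydrolase and synthetase activities, had signals of 9502 and 9995 after 8 h and 13102 and 10550 in untreated cells. Both treated arrays were lower, by a log2 fold change of -0.27 ± 0.21 (SE, adjusted p = 0.763, with the block 0.263). SHMT1, the cytosolic form of SHMT2, had signals of at most 72.6 on every array, and MTHFD1L, the mitochondrial synthetase, of at most 71.7, so no change was tested for either. Further probe sets for these genes carry several gene names and were not used.

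Sulfur from methionine reaches cysteine through CBS and then CTH. CTH, which releases cysteine from cystathionine, had signals of 4455 and 11968 after 3 h, 13952 and 14341 after 8 h and 1136 and 8299 in untreated cells. The 8 h array was the brighter in both replicates, 12.3-fold in replicate 1 and 1.73-fold in replicate 2, and CTH rose in the blocked fit by 2.20 ± 0.47 on the log2 scale (SE of that fit, adjusted p = 0.0243, and 0.419 without the block). CBS, the enzyme before it, was at 2183 and 4808 after 8 h and 1127 and 4796 in untreated cells. It was 1.94-fold brighter at 8 h in replicate 1 and 1.00-fold in replicate 2 (adjusted p = 0.209 in the blocked fit).

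Proline is made from glutamate by ALDH18A1 and then PYCR1. PYCR1, the mitochondrial reductase of the last step, had signals of 1969 and 2463 after 3 h, 2326 and 3291 after 8 h and 1008 and 2079 in untreated cells. It was brighter at 8 h in both replicates, 2.31-fold and 1.58-fold, and it rose in the blocked fit by 0.93 ± 0.18 on the log2 scale (SE of that fit, adjusted p = 0.0141, and 0.427 without the block). ALDH18A1, the enzyme of the first step, was at 1249 and 1396 after 8 h and 1022 and 1349 in untreated cells, a log2 fold change of 0.17 ± 0.22 (SE, adjusted p = 0.894).

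GOT1, the cytosolic aspartate transaminase, had the smallest adjusted p of the members at 8 h in limma with and without the block. In the local pooled error test it was not called (adjusted p = 0.0945). Its signals were 2580 and 3268 after 3 h, 5046 and 6090 after 8 h and 1888 and 2857 in untreated cells. The 8 h arrays were 2.67-fold and 2.13-fold brighter than the untreated array of their own replicate, and both lay above all 4 other arrays. The log2 fold change was 1.26 ± 0.26 (SE, adjusted p = 0.0995 without the block, and 0.000693 with it). GOT1 was also the 1 member called between the times, with a log2 difference of 0.93 for 8 h over 3 h (adjusted p = 0.0109 in the blocked fit, where 1.53% of all genes were higher and 1.72% lower at 8 h). Without the block, limma called 0 members and 0% of all genes higher at 8 h than at 3 h, with 1 member higher at an unadjusted p under 0.05, beside 2.77% of all genes. GOT2, the mitochondrial form, was at 3042 and 3801 after 8 h and 2667 and 3816 in untreated cells, a log2 fold change of 0.09 ± 0.24 (SE, adjusted p = 0.962).

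GLUL, which makes glutamine, had signals of 1960 and 2755 after 8 h and 2828 and 3111 in untreated cells. Both 8 h arrays were lower, by a log2 fold change of -0.35 ± 0.23 (SE, adjusted p = 0.698, with the block 0.178). BCAT1, the cytosolic transaminase of leucine, isoleucine and valine, was at 4507 and 9237 after 3 h, 7483 and 10897 after 8 h and 5125 and 10060 in untreated cells, and did not pass at either time.

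Among the carriers, SLC7A11 and SLC3A2 form the exchanger that imports cystine for glutamate, with SLC3A2 as the heavy chain that takes its partner to the cell surface. SLC7A11 had signals of 2633 and 6684 after 3 h, 9242 and 11094 after 8 h and 524 and 6642 in untreated cells. The untreated replicate 1 array was far below the other 5, and the 8 h array was 17.6-fold brighter than the untreated one in replicate 1 and 1.67-fold in replicate 2. Its log2 fold change of 2.44 was the largest of the members, with an SE of 1.00 and an adjusted p of 0.475 without the block and an SE of 0.58 and an adjusted p of 0.0369 with it. SLC3A2 was at 1826 and 4910 after 3 h, 3585 and 5166 after 8 h and 955 and 3163 in untreated cells. It was brighter at 8 h in both replicates, 3.75-fold and 1.63-fold, and rose in the blocked fit by 1.31 ± 0.24 on the log2 scale (SE of that fit, adjusted p = 0.0111, and 0.532 without the block).

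SLC3A2 also pairs with SLC7A5, the carrier of leucine and other large neutral amino acids, and with SLC7A6. SLC7A5 was at 2367 and 5820 after 3 h, 5651 and 6180 after 8 h and 1203 and 5873 in untreated cells. Its 4.70-fold difference at 8 h in replicate 1 stood against 1.05-fold in replicate 2 (log2 fold change 1.15 ± 0.69 SE, adjusted p = 0.648, with the block 0.109). SLC7A6 went the other way, with 610 and 542 after 8 h and 652 and 744 in untreated cells, a log2 fold change of -0.28 ± 0.23 (SE, adjusted p = 0.781). SLC43A1, which also carries large neutral amino acids but needs no heavy chain, was at 382 and 553 after 8 h and 116 and 521 in untreated cells, with a log2 fold change of 0.90 ± 0.64 (SE, adjusted p = 0.729).

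SLC7A1, a carrier of arginine and lysine, had signals of 7193 and 9240 after 3 h, 10871 and 11640 after 8 h and 4495 and 8624 in untreated cells. SLC38A1, a sodium-coupled carrier of glutamine, was at 7221 and 9415 after 3 h, 12729 and 11885 after 8 h and 5422 and 8193 in untreated cells. For both genes, both 8 h arrays were brighter than the 4 other arrays. In the blocked fit SLC7A1 rose by 0.85 ± 0.18 (SE of that fit, adjusted p = 0.0210, and 0.418 without the block) and SLC38A1 by 0.88 ± 0.16 on the log2 scale (adjusted p = 0.0102, and 0.265 without the block). SLC38A2, a related carrier known to respond to amino acid shortage, was at 29271 and 24484 after 3 h, 26291 and 21908 after 8 h and 18865 and 20865 in untreated cells. Both 3 h arrays lay above both untreated arrays, by 0.43 on the log2 scale in the mean (adjusted p = 0.9995, with the block 0.226). At 3 h this held for 1 of the 29 members and 14% of all genes, and the reverse for 2 members, MTHFD1 and SLC7A6, and 16.5% of all genes.

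The glutamate and neutral amino acid carriers of the SLC1 family did not pass at either time. SLC1A5, a carrier of glutamine, was at 4114 and 5221 after 8 h and 2777 and 4402 in untreated cells (adjusted p = 0.762). SLC1A4, a carrier of alanine, serine and cysteine, was at 763 and 1196 after 8 h and 461 and 2071 in untreated cells, and SLC1A3, a glutamate carrier, at 156 and 196 after 8 h and 71.7 and 302 in untreated cells. For SLC1A3 and SLC1A4 the 2 replicates went opposite ways, higher after 8 h of Tg in replicate 1 and lower in replicate 2. SLC6A9, a glycine carrier, and SLC7A2, a carrier of arginine and lysine, were dim, at most 113 and 155 on any array. Their log2 fold changes at 8 h, 1.84 ± 1.32 and 1.09 ± 0.76 (SE), had adjusted p values of 0.731 and 0.714. With signals under 100 raised to 100 these values were 0.086 and 0.36.

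**Figure D2:**
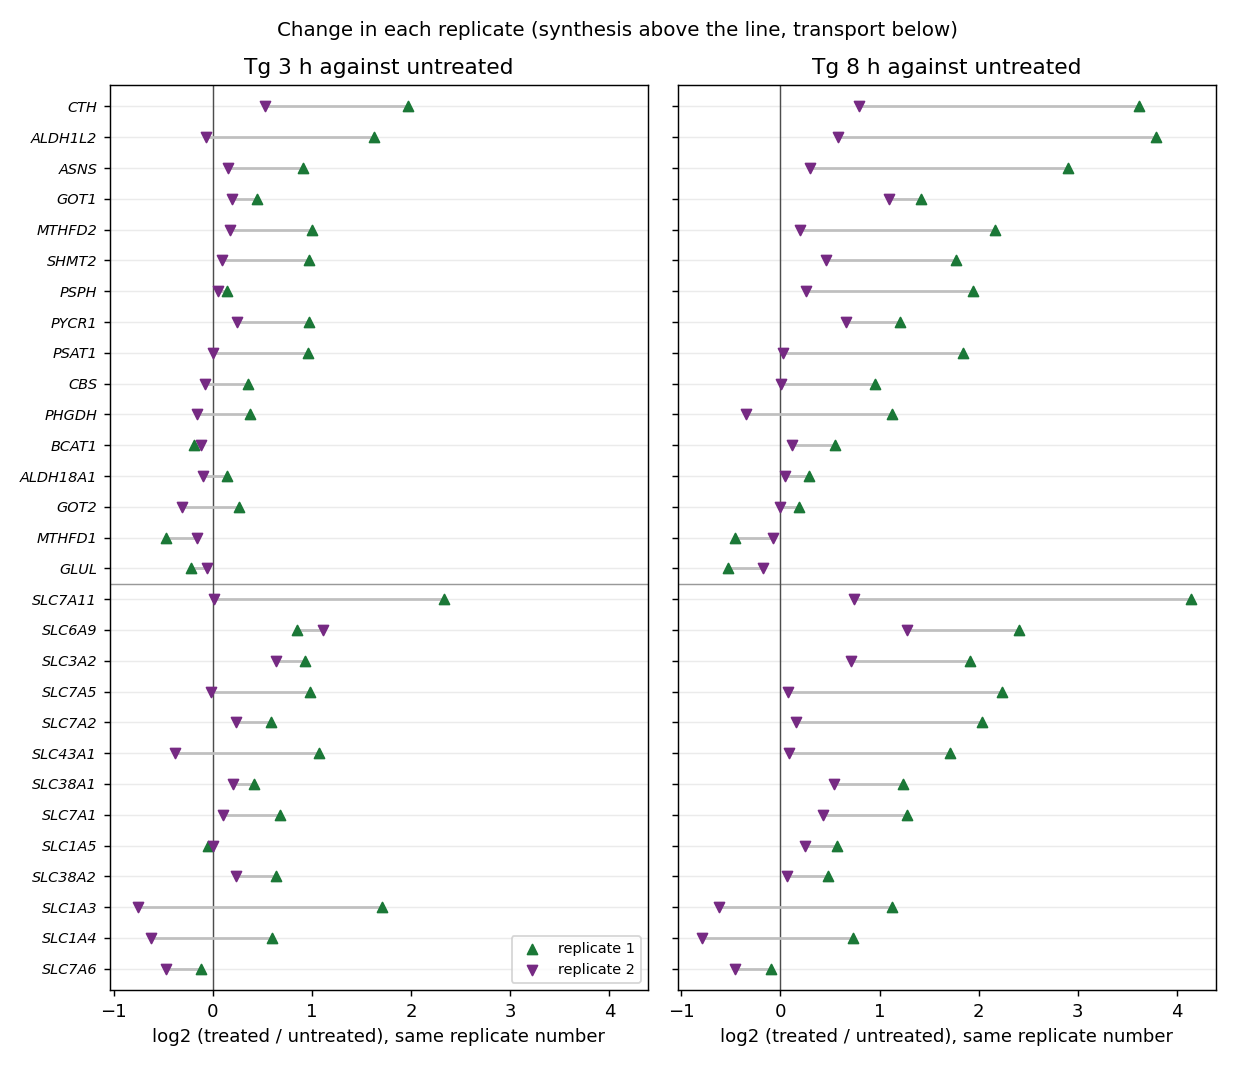
Log2 ratio of the treated to the untreated array of the same replicate number for each tested member, at 3 h and 8 h, with synthesis above the line and transport below. At 8 h the replicate 1 points reach 4.14 (SLC7A11) and the replicate 2 points 1.27 (the dim SLC6A9) and 1.09 (GOT1), and the points of GOT1 lie close together.

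The differences from untreated cells were larger in replicate 1 than in replicate 2 for most members. Within replicate 1, the median log2 difference between 8 h and untreated was 1.27 over the members, 1.31 over the enzymes and 1.27 over the carriers, against -0.10 over all genes. Within replicate 2 it was 0.15 for each of these sets of members, against -0.08 over all genes. A log2 difference of at least 1 was seen in 19 of 29 members in replicate 1, where 7.27% of all genes reached it, and in 2 of 29 (GOT1 and the dim SLC6A9) in replicate 2, where 4.35% of all genes did. Without SLC6A9 and SLC7A2 these counts were 17 and 1. At 3 h the medians were 0.63 in replicate 1 and 0.00 in replicate 2, against 0.01 and -0.04 over all genes. Each replicate holds 1 array per group, so these values carry no test.

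The replicates differed most in untreated cells. There the replicate 2 array was brighter than the replicate 1 array for 28 of 29 members and for 53.7% of all genes. The median log2 difference was 1.72 over the members (1.68 over the enzymes and 1.73 over the carriers), against 0.05 over all genes. The difference was at least 1 for 18 members and for 6.49% of all genes. It was largest for SLC7A11 (12.7-fold), ALDH1L2 (9.91-fold), ASNS (8.29-fold) and CTH (7.30-fold), and MTHFD1 alone was lower. After 3 h of Tg the median difference between the replicates was 0.90, and after 8 h it was 0.27, against -0.01 and 0.04 over all genes. The treated arrays at 8 h were thus nearer to each other than the untreated arrays were, and the untreated replicate 1 array enters both this difference and the change within replicate 1.

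Over the 3 groups together, the replicate term of the blocked fit called 17 of 29 members higher in replicate 2 and 0 lower, 11 of 16 enzymes and 6 of 13 carriers. Over all genes, 8.96% were higher and 7.25% lower. Without limma's intensity trend the count of members was 0, and the share over all genes is not given for that setting. CBS had the smallest adjusted p, with a log2 difference of 1.63 for replicate 2 over replicate 1 (adjusted p = 0.000437), followed by BCAT1 with 0.85 (adjusted p = 0.00169) and PHGDH with 1.60 (adjusted p = 0.00190). ATF4 mRNA was at 24943 and 27598 after 8 h of Tg and 4505 and 20999 in untreated cells, so its low array was also the untreated one of replicate 1. DDIT3 was 4.08-fold higher in untreated replicate 2 than in untreated replicate 1. The part that culture state, RNA handling or hybridization had in the difference between replicates was not tested, and in bulk RNA a change in the cells present cannot be told apart from a change in RNA per cell.

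**Figure D3:**
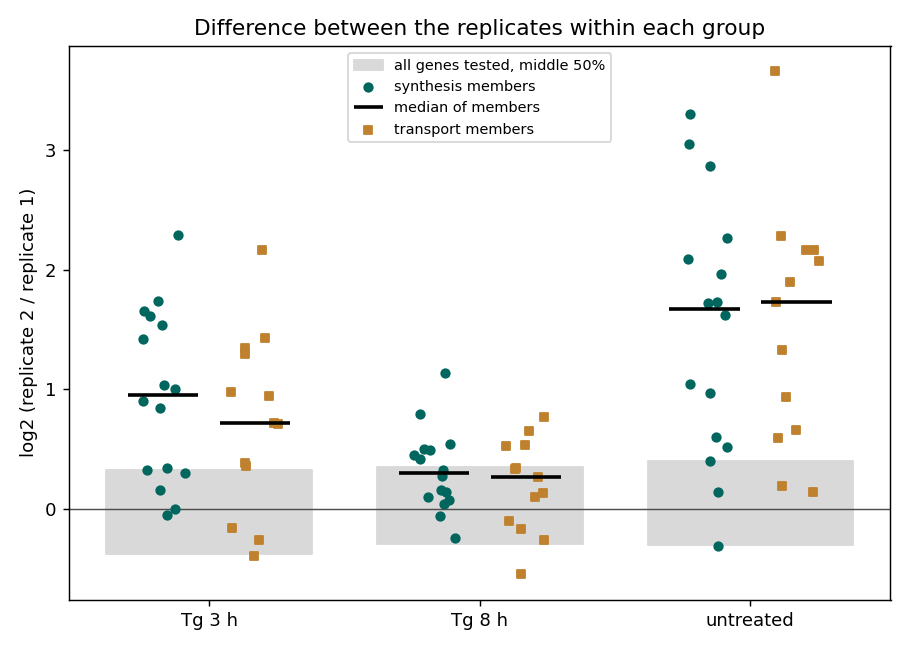
Log2 difference of replicate 2 over replicate 1 for each tested member after 3 h of Tg, after 8 h of Tg and in untreated cells. The untreated points reach 3.66 (SLC7A11), and the 8 h points have a median of 0.27.

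Several genes had more than 1 probe set, which gives a second reading from the same RNA. At 8 h the 3 probe sets of SLC7A11 gave log2 fold changes of 2.44, 2.31 and 1.99, the 3 of SHMT2 1.12, 1.03 and 1.22, and the 2 of CTH 2.20 and 2.11. These genes had replicate 2 above replicate 1 on every such probe set. The 3 probe sets of ALDH1L2 gave 2.19, 1.51 and 0.80, and the 5 of SLC1A4, 2 of them dim, ran from -1.95 to 2.71. For SLC7A1 and SLC38A1 the replicate difference took both signs, while the 8 h change was above 0 on every tested probe set, 0.81 to 2.09 over 4 for SLC7A1 and 0.77 to 0.88 over 3 for SLC38A1. Whether the response differed among probe sets was not tested. For SLC7A1, the log2 difference of replicate 2 over replicate 1 was 0.47 on the brightest probe set and -0.77 on another (adjusted p = 0.00903), where the 8 h change was 0.85 and 1.11. For SLC38A1 these differences were 0.29 and -0.71 (adjusted p = 0.0143), where the 8 h change was 0.88 and 0.87. For PSPH, 2 probe sets gave 1.10 and 1.48 at 8 h and a dimmer one gave -0.08. The other tested probe sets of GLUL gave -0.08 and 0.10 at 8 h, against -0.35 on its brightest. Those of SLC7A6 gave 0.12 and -0.07, against -0.28 on its brightest. For these genes the lower signal at 8 h was thus not seen on every probe set.

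**Figure D4:**
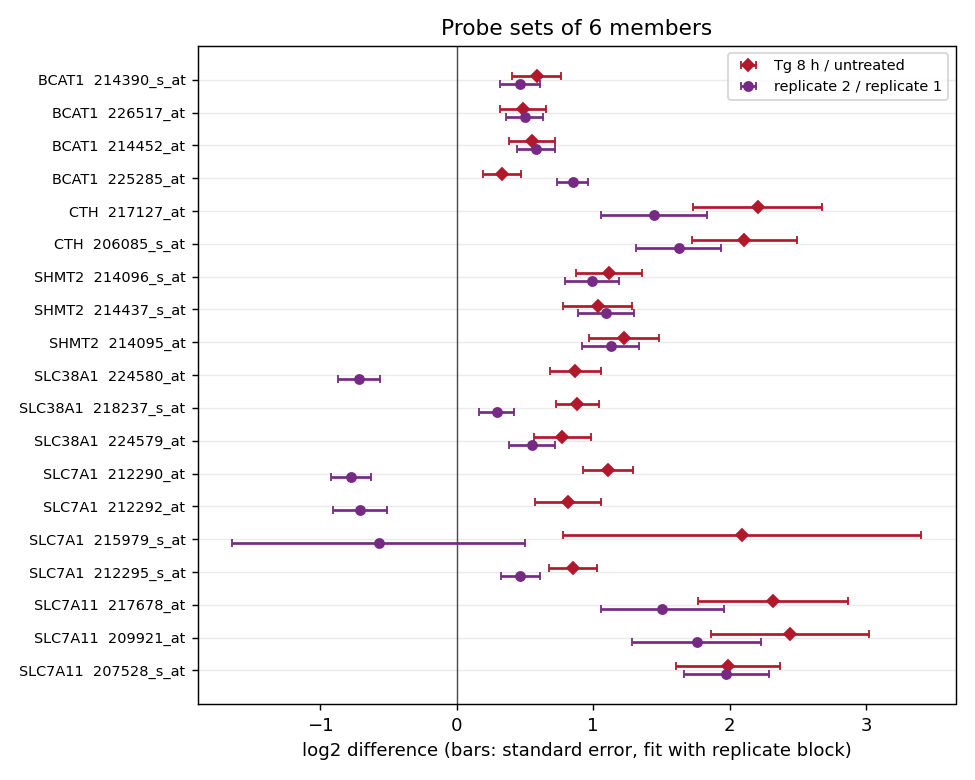
Each tested probe set of SLC7A11, SLC7A1, SLC38A1, SHMT2, BCAT1 and CTH, with the log2 fold change of Tg 8 h over untreated and the log2 difference of replicate 2 over replicate 1. Other members with more than 1 tested probe set, such as ALDH1L2, SLC1A4 and PSPH, are not drawn. For SLC7A1 and SLC38A1 the replicate difference takes both signs while the 8 h change stays above 0. The SLC7A1 probe set at 2.09 was dim in untreated cells and was tested only through its treated arrays.

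RefSeq promoter windows were at hand for 25 of the 32 members, some with several starts. TGATGNAA lay on either strand within 250 bases before a start for 6 of these 25 genes (24%), against 3.89% of all genes with a window. A gene was counted if any of its windows held the letters. By window, the shares were 15.6% of the 45 windows of members and 3.14% of all 35116 windows. Besides ASNS the 6 genes were GOT1, BCAT1, SLC1A5, SLC1A3 and the dim MTHFD1L. The stretches of the 4 tested ones are shown with the match in capitals, since GOT1 changed by a similar factor in both replicates, while the others hold the same letters and did not pass at 8 h. They lie in GRCh38.p14 at chr10:99430799-99430838 (GOT1, minus strand), chr12:24949126-24949165 (BCAT1, minus), chr19:46784888-46784927 (SLC1A5, minus) and chr5:36596352-36596391 (SLC1A3, plus).
GOT1: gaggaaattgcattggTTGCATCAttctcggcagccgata
BCAT1: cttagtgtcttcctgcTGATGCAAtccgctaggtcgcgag
SLC1A5: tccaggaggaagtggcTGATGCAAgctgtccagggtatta
SLC1A3: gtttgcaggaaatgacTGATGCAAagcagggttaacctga
In GOT1 the letters are those of the opposite strand, 198 bases before the start. In BCAT1, SLC1A5 and SLC1A3 the match begins 48, 97 and 220 bases before the start. The windows of CTH, PHGDH, PSAT1, SLC7A5 and SLC3A2 held no match, which says only that these letters are not in those windows.

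A wider list of 59 other genes of amino acid and folate metabolism and transport, of which 42 were tested, had no such shift in its median. This list, like the members, was chosen with earlier results of these data known, so it is no independent contrast. Its median log2 fold change was -0.09 at 8 h and -0.13 at 3 h, and its untreated arrays differed between replicates by a median of 0.05. Without the block, limma called 0 of the 42 at either time, and at 8 h an unadjusted p under 0.05 was reached by 0 that were higher and 2 that were lower. In the blocked fit 2 of 42 rose and 1 fell at 8 h, against 4.76% and 3.79% of all genes, so these counts are near or under the background. SLC25A32, which carries folate into mitochondria, rose by 0.50 (adjusted p = 0.0317), and GCLC, which makes the first intermediate of glutathione from cysteine and glutamate, rose by 0.57 (adjusted p = 0.0360). MAT2A, which makes S-adenosylmethionine, fell by 0.86 on the log2 scale (adjusted p = 0.0350).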

How the data were processed

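Expression arrays were run on Daoy cells treated with Tg for 3 h or 8 h or left untreated, 6 in all. The values deposited by the authors were linear MAS5 intensities, one per probe set and scaled to a common trimmed mean, and log2 values were taken here. The paper describes independent experiments, but p-values measure only the spread between these arrays. The platform annotation gave 1 symbol to 41097 of 54675 probe sets, several to 1801 and none to 11777. This left 19775 genes with a probe set named to them alone, and each was read from the brightest one.

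Members and lists were chosen with earlier results of these data known. Values on every array are given for members with an absolute log2 fold change of at least 1 at either time or called with or without the block, and others were named after their values were seen. Limma 3.58.1 in R 4.3.3 (lmFit, then eBayes with an intensity trend) was fitted to the 6 arrays together by group, leaving 3 residual degrees of freedom, or 2 with the replicate number as a block. Deviations from the group means correlated between arrays of the same number by 0.26 to 0.32 across probe sets, which are not independent, and the number was taken as pairing the arrays. The ratio of 3' to 5' ACTB signal lay between 2.97 and 4.47 in replicate 1 and between 2.75 and 3.25 in replicate 2. The alternatives were the block, the local pooled error test, no trend, quantile normalization, median centring, a floor, other filters, 4 arrays only, leaving out each array and the mean of a gene's probe sets. Tests were two-sided. They were tried on simulated data with less noise than these arrays and a replicate effect equal in every group. Those runs do not show how the tests behave where replicates differ by group, as here. Promoter letters were counted in RefSeq windows with Python 3.11.15.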

Additional observations from a re-analysis of the deposited data

Results flagged for a closer look

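GOT1 and BCAT1 are listed for their values at the 2 times of treatment. For GOT1 the log2 difference of 8 h over 3 h was 0.93, and it passed in the blocked fit (adjusted p = 0.0109) but not without the block (adjusted p = 0.467), with 8 h above 3 h in both replicates. For BCAT1 the difference on its brightest probe set was 0.48. On that probe set both replicates were below their untreated array at 3 h, by log2 differences of -0.19 and -0.12, and above it at 8 h, by 0.55 and 0.12. The difference between the times did not pass on that probe set (adjusted p = 0.119 in the blocked fit, and 0.932 without the block). On a dimmer probe set of BCAT1 it was 0.78, and it passed in the blocked fit (adjusted p = 0.0473) but not without the block (adjusted p = 0.759). There the replicates were at -0.47 and -0.004 at 3 h and at 0.68 and 0.42 at 8 h. Another of its 4 probe sets was above untreated at 3 h in both replicates, by 0.63 and 0.04, so the change of sign is not seen on all of them.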

How the results depend on the processing

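With 2 arrays per group, the calls rest on few degrees of freedom. The count of 0 members higher at 8 h became 5 with the local pooled error test and 9 with the replicate block. With the block it was 9 after quantile normalization, 7 with signals under 100 raised to 100, 6 with the mean of a gene's probe sets and 0 without the intensity trend. Leaving out 1 array gave 0 to 3 members without the block, the 3 (ALDH1L2, CTH and SLC7A11) without untreated replicate 2. With the block it gave 1 to 16: 1 (GOT1) without untreated replicate 1, 15 without untreated replicate 2, 5 without Tg 8 h replicate 1 and 16 without Tg 8 h replicate 2. GOT1 was called in the blocked fit whichever array was left out. Between 8 h and 3 h the count of 0 became 1 with the replicate block. The 17 members higher in replicate 2 became 0 without the intensity trend. Shares over all genes are given above only for limma with and without the block and for the local pooled error test. Whether the other changes in count are particular to the members was not tested. At 8 h, 223 values of 15 members under alternatives kept their direction, but only 85 of them differed from the reported value, since the other settings leave the estimate as it is. Of the 223, 17 passed where limma without the block did not. Without untreated replicate 1 the log2 fold change was 0.00897 for SLC7A5, 0.069 for ASNS and 0.61 for SLC7A11. Signals under 100 raised to 100 gave 0.086 for SLC6A9 and 0.36 for SLC7A2, and a median of 0.41 for the carriers. Without these 2 genes, an alternative chosen after seeing the data, that median was 0.85. Leaving out 1 array moved the median log2 fold change of the enzymes to between -0.30 and 1.16 at 3 h and between 0.019 and 1.54 at 8 h, and that of the carriers to between -0.35 and 1.07 at 3 h and between 0.20 and 1.32 at 8 h. At 3 h it also turned the sign of 12 members that had not passed, with log2 fold changes from -0.99 to 2.06 for ASNS, -0.72 to 0.91 for PSPH, -0.33 to 1.397 for SHMT2, -0.28 to 1.45 for MTHFD2, -0.87 to 2.44 for ALDH1L2, -0.18 to 2.68 for CTH, -0.66 to 3.00 for SLC7A11, -0.66 to 1.63 for SLC7A5, -0.079 to 1.65 for SLC3A2, -0.081 to 0.86 for SLC7A1, -0.26 to 1.07 for SLC7A2 and -0.10 to 2.06 for SLC6A9. The mean of all probe sets gave PSPH -0.072 at 3 h. The cause of these changes was not tested.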
